A study of Mus musculus with 18 samples.

Results

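The integrated stress response genes of the ATF4-CHOP branch were followed in mouse brown adipocytes in which lipolysis was switched on or blocked. The set held 10 genes, chosen by symbol, of the 20295 genes in the deposited count table: Atf3, Atf4, Atf5, Ddit3, Ddit4, Trib3, Chac1, Asns, Sesn2 and Ppp1r15a. Earlier results of these data were known when they were chosen. All 10 were among the 12156 genes that passed the filter on low counts. The cells were BAT-LgT, wild-type mouse brown preadipocytes that had been immortalised with SV40 large T antigen and were differentiated in culture, and their total RNA was sequenced. On day 7 the cells were stimulated for 3 h with Vehicle (DMSO), with isoproterenol (ISO, 100 nM), an agonist of all β-adrenergic receptors, or with SR-3420 (10 µM per the labels, while the text of the study gives another dose). SR-3420 binds ABHD5 and frees it from perilipin, which activates the triglyceride lipase ATGL without a β-adrenergic signal. Each stimulus was given without pre-treatment and after 1 h with inhibitors of ATGL and of hormone-sensitive lipase (Lipase Inh.). This gave 6 groups of 3 samples. All samples come from 1 cell line, carry the large T antigen and received the same differentiation cocktail, so they hold no other genetic background and no other cell of the tissue.

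In the integrated stress response, kinases that sense amino acid shortage, misfolded protein in the endoplasmic reticulum, haem shortage or double-stranded RNA phosphorylate the translation factor eIF2α. General translation then falls, while a few mRNAs with upstream open reading frames, Atf4 and Atf5 among them, are translated more. ATF4 protein is a bZIP transcription factor that, with C/EBP partners, activates genes for amino acid supply, for stress adaptation and for its own restraint. CHOP, the product of Ddit3, is another bZIP factor and is linked to cell death under lasting stress. Since much of the control of ATF4 and ATF5 lies in translation, mRNA counts do not measure the activity of these proteins.

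The promoters of all 10 genes were looked up in RefSeq (GRCm38.p6), from 250 bases before to 50 bases after the start site, because a shared C/EBP-ATF response element is the best known feature of ATF4 target genes. The core of that element was searched as TGATGNAA on both strands, where N is any base. A match was held by 4 of the 11 promoters of these genes (Atf5 has 2), those of Atf3, Chac1, Asns and Trib3, against 3.97% of all 32851 mouse promoters in the table. The full cyclic AMP response element, TGACGTCA, which reads the same on both strands, occurred in the Ppp1r15a promoter and in 1.79% of all promoters. The endoplasmic reticulum stress element (ERSE), to which ATF6 and NF-Y bind, was searched on both strands and found in 0 of the 11 windows and in 0.119% of all promoters. A match is a run of letters and not a shown binding site. The stretches below run 5′ to 3′ on the strand of the gene, with the match in capitals and positions counted from the start site (negative before it), so that the promoters of the Atf3, Chac1 and Trib3 genes show the core in its reverse orientation.
Atf3 (chr1:191183399-191183503, minus strand, match from -110 to -103): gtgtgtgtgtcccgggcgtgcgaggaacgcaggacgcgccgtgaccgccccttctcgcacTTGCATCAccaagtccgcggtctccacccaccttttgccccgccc
Chac1 (chr2:119350992-119351093, plus strand, match from -193 to -186): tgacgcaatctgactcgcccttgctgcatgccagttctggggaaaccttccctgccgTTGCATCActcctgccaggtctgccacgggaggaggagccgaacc
Asns (chr6:7693210-7693292, minus strand, match from -23 to -16): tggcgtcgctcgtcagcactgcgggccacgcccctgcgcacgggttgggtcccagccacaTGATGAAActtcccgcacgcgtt
Trib3 (chr2:152344028-152344057, minus strand, match from 15 to 22): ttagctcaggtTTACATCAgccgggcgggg
Ppp1r15a (chr7:45526269-45526340, minus strand, cyclic AMP response element from -12 to -5): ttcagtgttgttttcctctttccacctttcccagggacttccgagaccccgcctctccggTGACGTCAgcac
The Atf3 and Chac1 genes share the same 8 letters, and the remaining matches differ from them and from each other within the core.

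Total counts lay between 10310447 and 21205032 in 17 libraries, while Lipase Inh. + SR-3420 replicate 2 held 4263755, of which a single gene, Lars2, took 18.3% (0.0397% to 0.121% in the others). Where a printed fold change of the 10 genes rests on this library and passed the test, it is therefore also given without it. Levels are CPM, counts relative to the library total after TMM scaling. Before that scaling, 3 counts came to between 0.141 and 0.704 CPM in the 18 libraries, and every CPM of the 10 genes was above that. TMM factors ran from 0.881 to 1.12, with means of 0.895 in the ISO libraries and 1.11 in the Vehicle libraries. Markers of brown adipocytes (9 of 10 above 1 CPM on average, Dio2 near 0) summed to between 6337 and 9952 CPM in the 18 libraries. Those of preadipocytes or fibroblasts summed to between 31.5 and 55.98 CPM and differed between groups, those of leukocytes to between 1.96 and 6.30 CPM with Ptprc at 0 in all libraries, those of endothelium to at most 0.631 CPM and those of muscle to at most 2.55 CPM. In such bulk samples fewer cells of a type and less RNA per cell cannot be told apart.

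Both stimuli raised most of the set. After ISO, 8 of the 10 genes exceeded Vehicle and 0 were below it at an adjusted p of at most 0.05 (edgeR quasi-likelihood test, Benjamini-Hochberg over all 12156 genes), where 26.8% of all genes were called higher and 25.0% lower. With SR-3420, 9 were higher and 0 lower, against 26.0% and 25.4% of all genes. The rise was at least 2-fold for 5 of the 10 genes with ISO (5.03% of all genes) and for 7 with SR-3420 (3.97% of all genes). The median log2 fold change of the 10 genes was 1.08 with ISO and 1.67 with SR-3420, while the medians over all genes were -0.02 for both. Both comparisons share the Vehicle libraries. Higher genes made up 51.7% of all calls for ISO and 50.6% for SR-3420, while total counts in place of TMM gave shares of 19.9% and 30.8%, as the median of all genes moved by -0.31 and -0.16 on the log2 scale. The summed preadipocyte or fibroblast markers were also higher in the stimulated samples, at 32.7 to 40.8 CPM with Vehicle, 44.9 to 55.98 with ISO and 45.6 to 46.7 with SR-3420, and neither stimulated group overlapped Vehicle. Under inhibitors they were at 31.5 to 37.6 CPM with Vehicle, 38.7 to 51.9 with ISO and 34.0 to 35.2 with SR-3420. Of these 5 markers, ISO raised 2, SR-3420 raised 1, and 0 passed as lower. Of the 9 brown adipocyte markers tested, 4 rose and 1 fell with ISO, while 4 rose and 3 fell with SR-3420. The adipocyte transcription factor gene Pparg, chosen after its values were seen, went from 537 to 302 CPM with SR-3420 (-0.83 on the log2 scale, adjusted p = 1.98e-07), and Adipoq, chosen likewise, from 3593 to 2508 CPM (-0.52, adjusted p = 1.35e-05). Cox8b was lower with SR-3420 as well (-0.72), while Elovl3 (2.53), Ucp1 (2.11), Plin1 (0.50) and Fabp4 (0.30) were higher. The part of these shifts in the changes of the set was not tested.

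**Figure D1:**
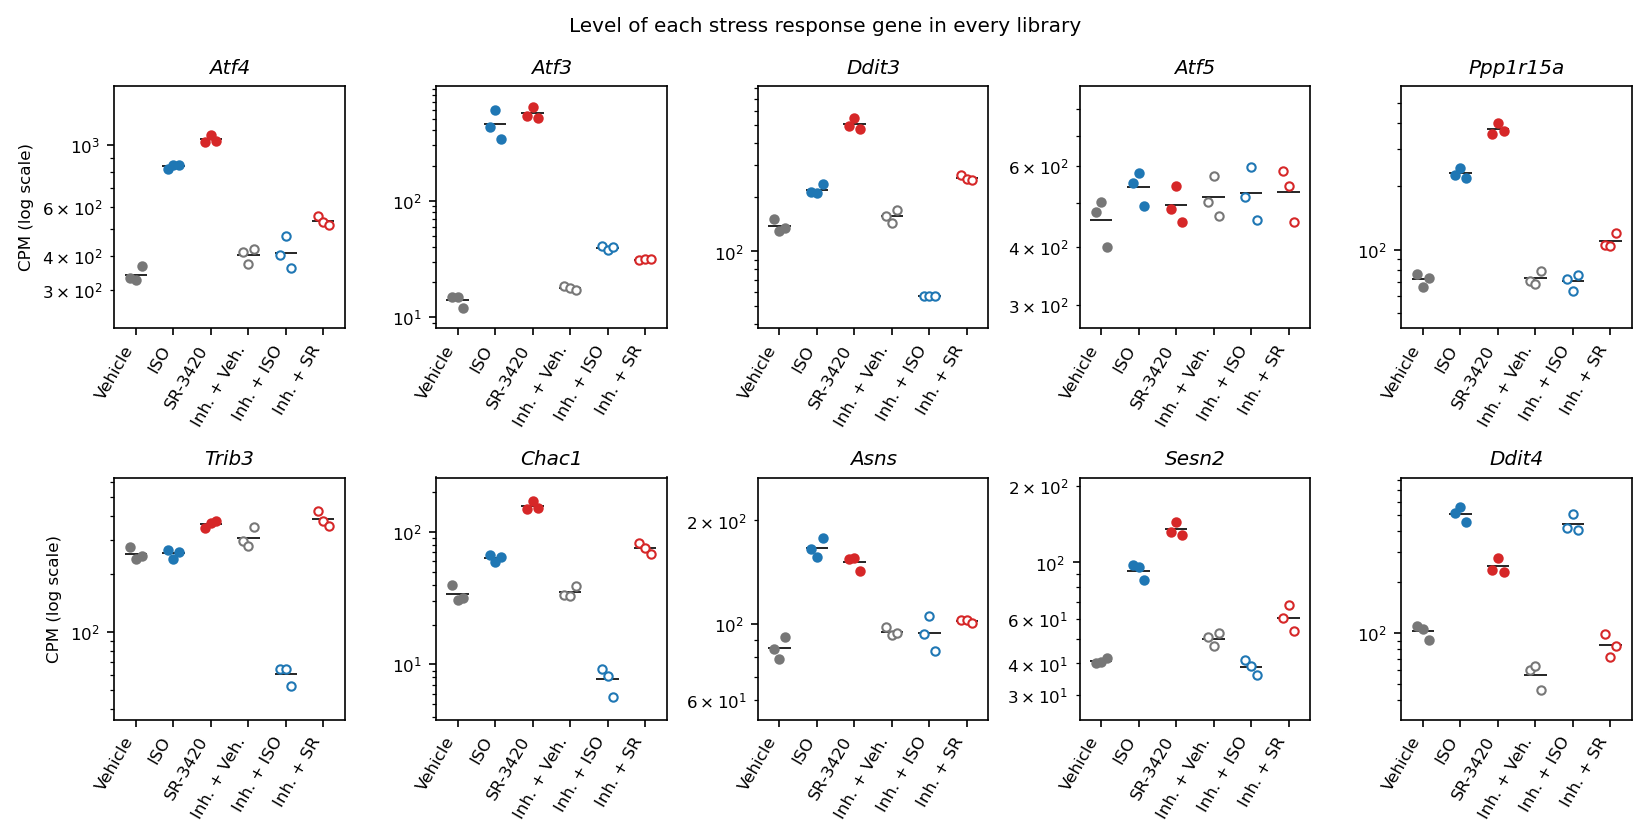
Level of each of the 10 genes in CPM (log axis) in all 18 libraries, with 3 points and their mean (line) per group; filled points had no inhibitor and open points had lipase inhibitors. Atf4, Atf3, Ppp1r15a, Asns and Sesn2 are high in both stimulated groups without inhibitors, Ddit3, Chac1 and Trib3 reach their lowest level with Lipase Inh. + ISO, Ddit4 stays high with ISO under inhibitors, and the 6 groups of Atf5 overlap.

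Among the transcription factors, Atf4 (NM_009716, mm9 chromosome 15, 80085614 to 80087975, plus strand) stood at 331, 328 and 365 CPM in the Vehicle samples. With ISO it was at 824, 849.5 and 852 CPM, and with SR-3420 at 1030.5, 1091 and 1033 CPM. The 3 groups did not overlap, and the log2 fold changes were 1.30 (SE 0.08, adjusted p = 1.21e-11) for ISO and 1.62 (SE 0.08, adjusted p = 5.98e-13) for SR-3420. With inhibitors Atf4 read 411, 372 and 422 CPM in Lipase Inh. + Vehicle, 401, 469 and 360.2 CPM in Lipase Inh. + ISO, and 554, 527 and 514 CPM in Lipase Inh. + SR-3420. The ISO samples with inhibitors thus lay within and around the range of their Vehicle samples (log2 fold change 0.03, SE 0.08, adjusted p = 0.776), while the SR-3420 samples remained above it (log2 fold change 0.40, SE 0.08, adjusted p = 0.003; 0.41 without the shallow library and 0.29, adjusted p = 0.106, with total counts). The inhibitors lowered both inductions of Atf4, with an interaction of -1.27 for ISO and -1.22 for SR-3420 on the log2 scale (adjusted p = 1.22e-08 and 7.13e-08).

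Atf3 (NM_007498, mm9 chromosome 1, 192994176 to 193007212, minus strand), a stress-induced bZIP factor that is itself a target of ATF4, changed most within the set. It rose from 15.04, 14.99 and 12.1 CPM with Vehicle to 424, 593 and 338 CPM with ISO, and to 529, 640.3 and 511 CPM with SR-3420. These are log2 fold changes of 5.00 (SE 0.16, adjusted p = 2.95e-16) and 5.31 (SE 0.16, adjusted p = 5.33e-16), which place Atf3 at rank 8 from the top of 12156 genes with ISO and at rank 3 with SR-3420. The ISO and SR-3420 samples of Atf3 overlapped (log2 difference -0.31, SE 0.13, adjusted p = 0.0707), although the difference passed with another scaling or filter, with a replicate block, in thinned libraries and without ISO replicate 2 (-0.56), with adjusted p from 0.000286 to 0.374 over all alternatives. In the presence of inhibitors the level was 18.5, 17.96 and 17.3 CPM with Vehicle, 40.7, 37.4 and 40.1 CPM with ISO, and 31.0, 31.4 and 31.4 CPM with SR-3420. Atf3 therefore still rose with each stimulus under inhibitors, with log2 fold changes of 1.14 (SE 0.16, adjusted p = 1.88e-06) for ISO and 0.80 (SE 0.16, adjusted p = 0.00468; the same value with adjusted p = 0.0126 without the shallow library) for SR-3420. The inductions of Atf3 were smaller under inhibitors than without, with interactions of -3.86 and -4.50 on the log2 scale.

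Ddit3, which encodes CHOP (NM_001290183, mm9 chromosome 10, 126727849 to 126733344, plus strand), responded more to SR-3420 than to ISO. Its levels were 151, 129 and 135 CPM with Vehicle, 213, 211 and 235 CPM with ISO, and 493, 547 and 478 CPM with SR-3420. The log2 fold change was 0.67 (SE 0.07, adjusted p = 1.26e-07) for ISO and 1.87 (SE 0.07, adjusted p = 2.15e-14) for SR-3420, and ISO against SR-3420 gave -1.20 (SE 0.07, adjusted p = 5.84e-11). Under inhibitors the levels were 157, 144 and 169 CPM with Vehicle, 56.9, 56.9 and 56.4 CPM with ISO, and 263, 250.2 and 247 CPM with SR-3420. Hence Ddit3 with Lipase Inh. + ISO fell below every other group, differing from Lipase Inh. + Vehicle by -1.47 on the log2 scale (SE 0.08, adjusted p = 5.78e-13), whereas with Lipase Inh. + SR-3420 it rose by 0.69 (SE 0.07, adjusted p = 5.53e-06; 0.70 without the shallow library). The span of Ddit3 overlaps that of Mars, the methionyl-tRNA synthetase on the opposite strand, by 68 bases, and whether the counting used the strand is not given in the sources used here. Mars averaged 49.0 CPM against 222 CPM for Ddit3 and, like Ddit3, rose with ISO (0.35, adjusted p = 0.0013) and after SR-3420 (0.29, adjusted p = 0.00509) and was lower in Lipase Inh. + ISO than in Lipase Inh. + SR-3420 (-0.27, adjusted p = 0.0108). Its ISO interaction was negative as well (-0.48, adjusted p = 0.003), while its change with ISO under inhibitors did not pass (-0.14, SE 0.08, adjusted p = 0.164). The part of reads from Mars in the counts of Ddit3, or the reverse, was not tested.

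Atf5 (NM_030693, mm9 chromosome 7, 52067626 to 52071028, minus strand), a bZIP factor close to ATF4 in sequence, passed the test in 0 of the 9 comparisons. Replicates 1 to 3 read 478, 501 and 399.8 CPM with Vehicle, 553, 579.6 and 492 with ISO, and 486, 542 and 455 with SR-3420, and over all groups the samples reached at most 598 CPM. The ranges of these groups overlapped, while for each replicate number the ISO sample was above the Vehicle sample. The largest estimate was the log2 fold change of 0.24 with ISO (SE 0.11, adjusted p = 0.0761, unadjusted p = 0.0424). It passed with a replicate block (adjusted p = 0.00134), with no low count filter, without Vehicle replicate 2 and without ISO replicate 3, and turned to -0.07 with total counts in place of TMM. With the block the ISO interaction of Atf5 passed too (-0.22, adjusted p = 0.0452).

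**Figure D2:**
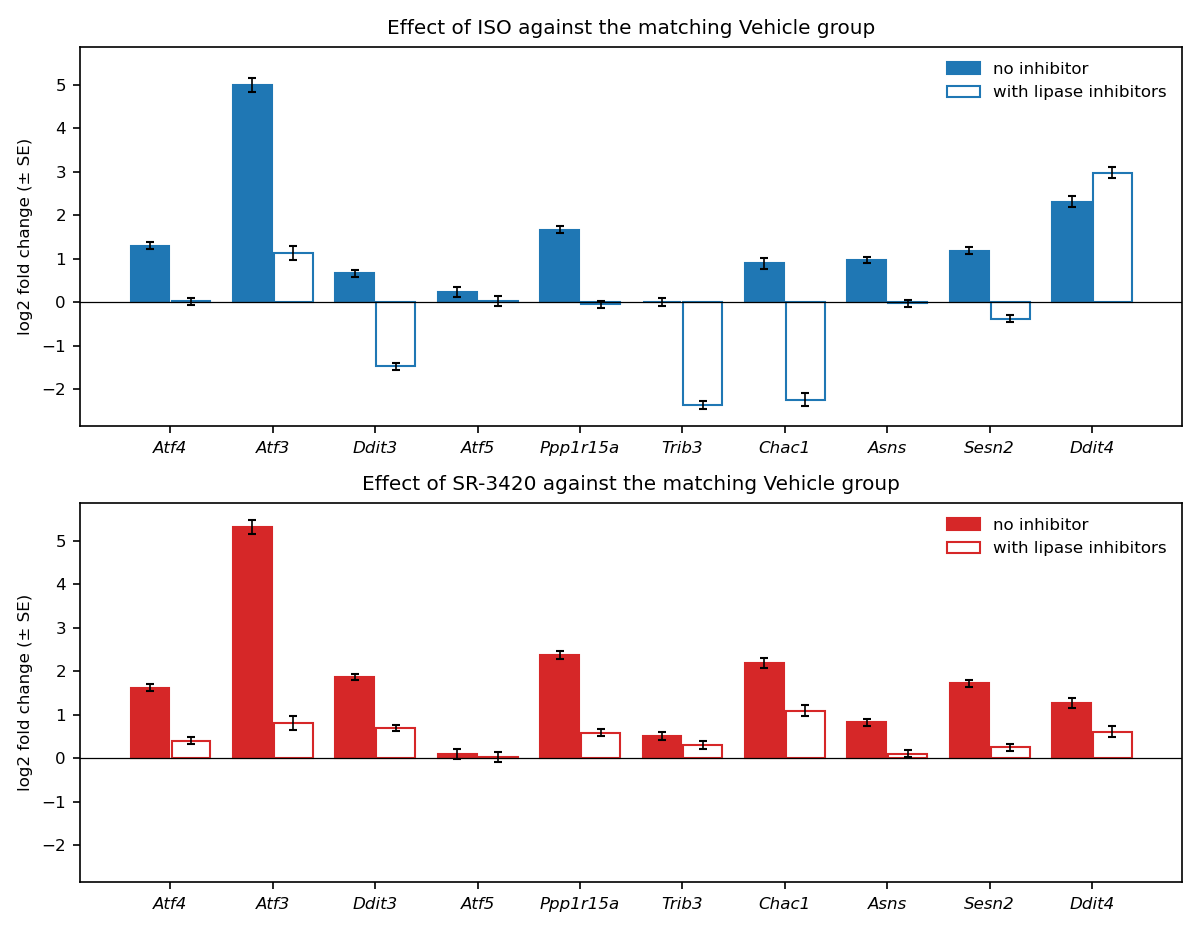
Log2 fold change of each gene (bars, with the standard error from the edgeR fit) for ISO (top) and SR-3420 (bottom) against the Vehicle group of the same inhibitor state, without (filled) and with (open) lipase inhibitors. With ISO under inhibitors Ddit3, Trib3 and Chac1 lie at -1.47, -2.36 and -2.23 while Ddit4 reaches 2.98; with SR-3420 under inhibitors every bar is positive and shorter than without inhibitors, although those of Atf5 and Asns turned negative with total counts.

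Of the genes acting downstream, 2 give feedback on the pathway. Ppp1r15a (NM_008654, mm9 chromosome 7, 52778288 to 52781638, minus strand) encodes GADD34, the subunit that directs a phosphatase to eIF2α and so restores translation. It was at 76.8, 66.6 and 73.0 CPM with Vehicle, at 226, 245 and 219.6 CPM with ISO and at 355, 399 and 366 CPM with SR-3420. The log2 fold changes were 1.67 (SE 0.08) and 2.37 (SE 0.08), with adjusted p = 5.42e-13 and 4.03e-15, and the groups did not overlap. Under inhibitors the ISO samples (72.4, 63.3 and 76.1 CPM) overlapped the Vehicle samples (70.8, 68.5 and 79.3 CPM), while the SR-3420 samples were higher at 105, 104 and 119.8 CPM (log2 fold change 0.59, SE 0.09, adjusted p = 0.00015; 0.62 without the shallow library). Trib3 (NM_175093, mm9 chromosome 2, 152163161 to 152169796, minus strand) encodes a pseudokinase that binds ATF4 and CHOP and restrains them. It was the target for which ISO alone gave no detectable change, with 267, 240.1 and 261 CPM against 277, 239 and 248 CPM with Vehicle (log2 fold change 0.01, SE 0.09, adjusted p = 0.938), although with total counts it passed as lower (-0.30, adjusted p = 0.0199). SR-3420 raised it to 345, 369 and 376 CPM (0.51, SE 0.09, adjusted p = 6.59e-05). Under inhibitors the Vehicle samples of Trib3 read 296, 280.1 and 349 CPM and the ISO samples fell to 64.6, 64.4 and 52.6 CPM, which is -2.36 on the log2 scale (SE 0.10, adjusted p = 1.34e-14). With Lipase Inh. + SR-3420 it read 422, 375 and 356 CPM, above its Vehicle samples by 0.32 (SE 0.09, adjusted p = 0.0492). That call was lost in 14 alternative settings, among them the fit without the shallow library (0.33, adjusted p = 0.0881), and the adjusted p ran from 0.0139 to 0.324 over all of them.

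Chac1 (NM_026929, mm9 chromosome 2, 119176978 to 119180062, plus strand), an enzyme that degrades glutathione, followed Ddit3 in its order of groups. It was at 40.0, 30.5 and 31.9 CPM with Vehicle, 67.2, 59.7 and 64.5 CPM with ISO, and 149.97, 171 and 151 CPM with SR-3420. Under inhibitors it was at 33.5, 32.6 and 39.1 CPM with Vehicle, 9.18, 8.24 and 5.73 CPM with ISO, and 82.3, 75.9 and 68.1 CPM with SR-3420. The ISO effect was thus 0.90 (SE 0.12, adjusted p = 1.65e-06) without and -2.23 (SE 0.14, adjusted p = 2.01e-11) with inhibitors, and the SR-3420 effect 2.20 (SE 0.12, adjusted p = 2.59e-12) and 1.10 (SE 0.12, adjusted p = 5.89e-06) on the log2 scale. Within the set, Chac1 had the largest SR-3420 effect left under inhibitors (1.09 without the shallow library).

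Asns and Sesn2 are genes of the amino acid response. Asns (NM_012055, mm9 chromosome 6, 7625171 to 7643182, minus strand), asparagine synthetase, was at 84.2, 78.8 and 91.4 CPM with Vehicle, 166, 156 and 178 CPM with ISO and 155, 156 and 142 CPM with SR-3420. ISO raised it by 0.97 (SE 0.08, adjusted p = 1.08e-09) and SR-3420 by 0.83 (SE 0.08, adjusted p = 1.68e-08) on the log2 scale, and the difference between the stimuli did not pass (0.14, SE 0.08, adjusted p = 0.17). Under inhibitors its 9 samples lay between 83.3 and 106 CPM and it passed in 0 of the comparisons with Lipase Inh. + Vehicle, although with total counts ISO gave -0.24 (adjusted p = 0.0308). Sesn2 (NM_144907, mm9 chromosome 4, 132048722 to 132066371, minus strand), a leucine-binding inhibitor of mTORC1 signalling, rose from 40.2, 40.6 and 41.9 CPM to 98.0, 95.8 and 85.0 CPM with ISO and 132, 144 and 128 CPM with SR-3420 (log2 fold changes 1.19 and 1.72, each SE 0.08). Under inhibitors Sesn2 fell with ISO, from 50.7, 47.0 and 52.6 CPM to 41.2, 39.2 and 36.0 CPM (-0.38, SE 0.09, adjusted p = 0.000761). With SR-3420 it stood at 60.2, 67.95 and 53.9 CPM, which did not pass (0.25, SE 0.09, adjusted p = 0.115; 0.18 without the shallow library).

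Ddit4 (NM_029083, mm9 chromosome 10, 59412423 to 59414518, minus strand) encodes REDD1, another inhibitor of mTORC1 signalling that responds to many stresses besides this one, and it was the gene of the set that kept its ISO response. It was at 109, 106 and 91.1 CPM with Vehicle, 510.2, 555 and 456 CPM with ISO, and 235, 278 and 230.4 CPM with SR-3420. In contrast to Ddit3, Ddit4 was higher with ISO than with SR-3420, by 1.03 on the log2 scale (SE 0.12, adjusted p = 1.03e-06). The inhibitors alone lowered Ddit4 to 60.2, 63.3 and 45.8 CPM (-0.86, SE 0.12, adjusted p = 0.000447). From there ISO raised it to 417, 503 and 408 CPM, an increase of 2.98 on the log2 scale (SE 0.13, adjusted p = 2.5e-14), and the ISO samples without and with inhibitors overlapped. The SR-3420 samples under inhibitors were at 98.6, 72.0 and 84.2 CPM (0.61, SE 0.13, adjusted p = 0.00571; 0.70 without the shallow library and 0.50, adjusted p = 0.0518, without replicate 1), close to the Vehicle samples that had no inhibitor.

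The inhibitor comparisons ask how much of each induction is seen when the lipases are blocked. The inhibitors by themselves changed 1 of the 10 genes, Ddit4, which fell, and 0 rose, where 0.428% of all genes were called lower and 0.485% higher. Sesn2 was nearest to a rise (0.29, SE 0.09, adjusted p = 0.133), and it passed with DESeq2 and with a replicate block. With ISO under inhibitors 2 genes were higher than Lipase Inh. + Vehicle (Atf3 and Ddit4; 29.4% of all genes) and 4 were lower (Ddit3, Trib3, Chac1 and Sesn2; 28.3% of all genes). With SR-3420 under inhibitors 7 were higher and 0 lower, against 2.99% and 1.36% of all genes, and without the shallow library 6 were higher. The log2 medians of the set were -0.03 for ISO and 0.50 for SR-3420 under inhibitors.

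The interaction, that is the effect of a stimulus with inhibitors minus its effect without, passed as negative for 8 of the 10 genes with ISO (16.6% of all genes) and as positive for 1, Ddit4 (14.9% of all genes). Counts and shares of negative or positive interactions below are likewise of genes that passed. Its size for ISO was -3.13 for Chac1, -2.37 for Trib3, -2.13 for Ddit3, -1.72 for Ppp1r15a, -1.56 for Sesn2 and -0.99 for Asns on the log2 scale, while Ddit4 had 0.67 (SE 0.17, adjusted p = 0.00467). For SR-3420 the interaction passed as negative for 8 genes and as positive for 0, against 14.8% and 12.5% of all genes. Here it was -1.78 for Ppp1r15a, -1.47 for Sesn2, -1.18 for Ddit3, -1.10 for Chac1, -0.73 for Asns and -0.66 for Ddit4, and for Trib3 it was -0.20 (SE 0.13, adjusted p = 0.264). Without the shallow library the SR-3420 interaction was likewise negative for 8 genes and read -4.51 for Atf3, -1.75 for Ppp1r15a, -1.54 for Sesn2, -1.21 for Atf4, -1.17 for Ddit3, -1.11 for Chac1, -0.73 for Asns and -0.58 for Ddit4.

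The 2 stimuli were also compared directly. Without inhibitors ISO gave lower levels than SR-3420 for 6 of the 10 genes (Atf4, Ddit3, Trib3, Chac1, Sesn2 and Ppp1r15a) and a higher level for Ddit4, where 13.9% of all genes were lower and 15.8% higher. Under inhibitors the same 6 genes were lower and Ddit4 higher, against 28.3% and 28.6% of all genes. The differences under inhibitors reached -3.33 for Chac1, -2.67 for Trib3 and -2.16 for Ddit3, and 2.36 for Ddit4. For Atf4 they were -0.32 without and -0.38 with inhibitors. Without the shallow library 6 genes were likewise lower and 1 higher under inhibitors, with -3.32 for Chac1, -2.69 for Trib3, -2.17 for Ddit3, -0.38 for Atf4 and 2.28 for Ddit4.

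Per kilobase of counted length, the order of the genes in Vehicle samples ran from Atf5 (265 CPM per kb), Atf4 (198), Ddit3 (183) and Trib3 (124) through Ddit4 (60.6), Asns (44.0), Ppp1r15a (30.9), Chac1 (21.8) and Sesn2 (15.4) to Atf3 (7.10). With SR-3420, Ddit3 (670.2 CPM per kb) and Atf4 (608) were at the top and Atf3 had risen to 283, next to Atf5 at 285. Within genes, SR-3420 without inhibitors was the group with the highest mean CPM for Atf3, Atf4, Ddit3, Chac1, Sesn2 and Ppp1r15a, and it did not overlap the next group except for Atf3. Lipase Inh. + ISO was the lowest group for Ddit3, Trib3 and Chac1 without overlap with the next, and for Sesn2 and Ppp1r15a with overlap.

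Across the 18 samples, log2 CPM of Atf3, Atf4, Asns, Sesn2 and Ppp1r15a correlated with Pearson's r between 0.89 and 0.97 within these 5 genes, and Ddit3 with Chac1 at 0.99. Trib3 correlated with Ddit3 at 0.86 and with Ddit4 at -0.54, and Atf5 with the others between -0.06 and 0.27. These values are descriptions only, since the points share the treatments, the scaling and the libraries, and the groupings were made after the values were seen.

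**Figure D3:**
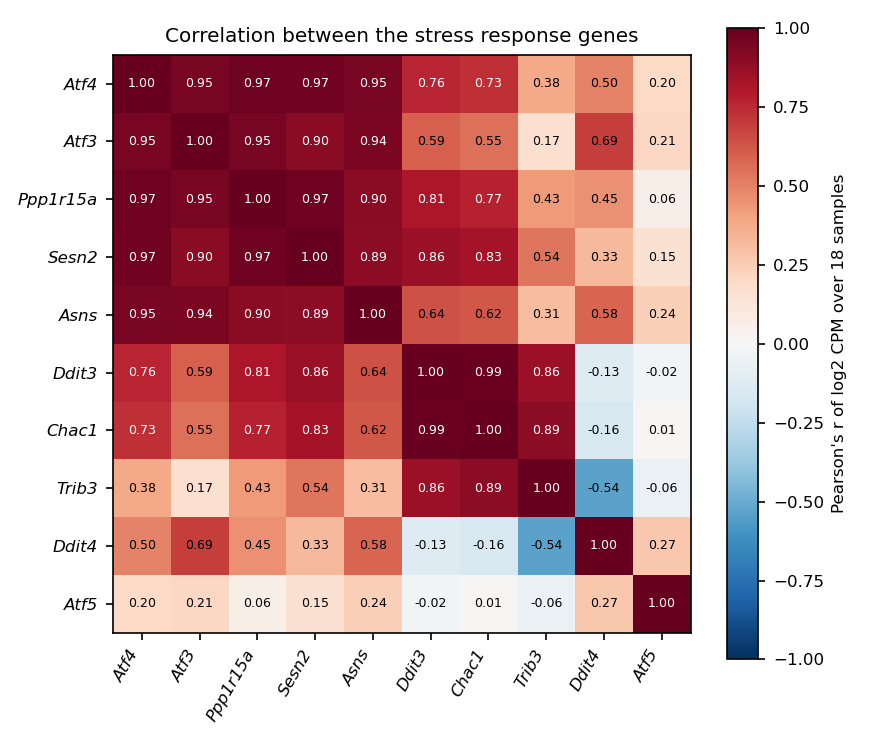
Pearson's r of log2 CPM (prior count 2) between each pair of the 10 genes over the 18 samples, from -1 (blue) to 1 (red). The block of Atf4, Atf3, Ppp1r15a, Sesn2 and Asns lies between 0.89 and 0.97, Ddit3, Chac1 and Trib3 between 0.86 and 0.99, and Atf5 with every other gene between -0.06 and 0.27.

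The genes outside the set whose pattern was most like that of Atf4 among 9344 candidates were Ifrd1 (r = 0.99), Siah2 (0.99) and the cationic amino acid transporter gene Slc7a1 (0.98). Ifrd1 averaged 42.4 ± 4.39 CPM with Vehicle, 172 ± 5.49 with ISO, 228 ± 19.6 with SR-3420 and 56.1 ± 6.00 with Lipase Inh. + ISO (SD, n = 3). Nearest to Ddit3 were the transcription factor gene Klf11 (0.99), the nuclear receptor co-repressor gene Nrip1 (0.98) and Myc (0.98). Klf11, chosen for this likeness, averaged 51.0 ± 0.625 CPM with Vehicle, 167 ± 12.5 with SR-3420, 58.7 ± 3.68 with Lipase Inh. + Vehicle and 18.8 ± 1.27 with Lipase Inh. + ISO. Nearest to Trib3 were Mllt4 (0.99), Igf2r (0.99) and Ctif (0.98), and Ctif averaged 56.7 ± 3.38 CPM with Lipase Inh. + Vehicle and 14.4 ± 1.18 with Lipase Inh. + ISO.

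Other genes of the pathway were grouped in lists by their known roles, and earlier results of these data were known when the lists were made. Genes named from a list are those with the smallest p in the SR-3420 interaction among those that passed. Of all genes, 26.8% were higher and 25.0% lower with ISO, and 26.0% and 25.4% with SR-3420. With ISO under inhibitors the shares were 29.4% and 28.3%. The interaction was negative for 16.6% and positive for 14.9% of all genes with ISO, and for 14.8% and 12.5% with SR-3420. Upstream of ATF4, of 12 genes for the eIF2α kinases, eIF2 and eIF2B, 5 were higher and 3 lower with ISO and 3 were higher and 4 lower with SR-3420, with 0 changes of at least 2-fold, and the median log2 fold changes of the list were 0.15 and 0.06. The amino acid sensing kinase gene Eif2ak4 rose by 0.56 (SE 0.12) with ISO and 0.45 (SE 0.12) with SR-3420, and its SR-3420 interaction was -0.51 (SE 0.18), a call that was lost without the shallow library (-0.51, adjusted p = 0.0536). The other kinase genes had lower means with both stimuli. Eif2ak3 went from 28.5 CPM with Vehicle to 21.4 with ISO and 24.0 with SR-3420. Eif2ak2 went likewise from 60.4 to 41.6 and 45.7 CPM, and Eif2ak1 from 82.7 to 71.9 and 67.7 CPM. The eIF2 subunit genes Eif2s2 and Eif2s1 rose by 0.79 and 0.50 with ISO, with SR-3420 interactions of -0.70 and -0.26. Under inhibitors ISO raised 8 of the 12 and lowered 1.

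Among 13 genes for bZIP partners of ATF4 and CHOP, 10 were higher and 1 lower with ISO, and 11 were higher and 0 lower with SR-3420 (medians 0.61 and 0.74). The interaction was negative for 8 and positive for 1 with ISO, and negative for 10 and positive for 0 with SR-3420 (8 and 0 without the shallow library). The AP-1 genes Jun, Junb and Jund rose by 2.92, 2.29 and 1.10 with SR-3420, and their SR-3420 interactions were -3.05, -2.40 and -1.41. Jun went from 185 ± 25.5 CPM with Vehicle to 1398 ± 71.8 with SR-3420, and to 175 ± 15.1 with Lipase Inh. + SR-3420 (SD, n = 3).

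Of 17 other stress targets of ATF4 or CHOP, 16 were tested, and 8 were higher and 6 lower with ISO while 10 were higher and 5 lower with SR-3420 (medians 0.44 and 0.82). Under inhibitors ISO raised 3 of them and lowered 10 (median -0.74). Their interaction was negative for 12 and positive for 1 with ISO, and negative for 8 and positive for 3 with SR-3420. Gdf15, a stress-induced secreted factor, rose by 2.71 (SE 0.17) with ISO and 3.82 (SE 0.17) with SR-3420, and fell short of the test with ISO under inhibitors (-0.30, SE 0.19). The cell cycle inhibitor gene Cdkn1a rose with both stimuli, and also with ISO under inhibitors (1.00, SE 0.11). Bcl2l11, which encodes the pro-apoptotic protein BIM and is listed as a CHOP target, instead fell with both, by 1.09 and 1.17 on the log2 scale. Under inhibitors its mean was 60.3 CPM with Vehicle, 32.8 with ISO and 58.1 with SR-3420. Its SR-3420 interaction was positive (1.09 without the shallow library).

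The amino acid supply list held 19 genes, of which 11 were higher and 4 lower with ISO and 13 were higher and 2 lower with SR-3420 (medians 0.35 and 0.53). The interaction was negative for 14 and positive for 1 with ISO and negative for 10 and positive for 1 with SR-3420. Slc7a1, Slc3a2 and Slc7a5, genes of the transport of cationic and large neutral amino acids, rose by 2.35, 1.69 and 1.57 with ISO and by 2.52, 1.95 and 2.06 with SR-3420. Of 13 genes for cytosolic tRNA synthetases and the tRNA exporter Xpot, 12 passed as higher after ISO, 13 did so after SR-3420, 0 were lower (medians 0.80 and 0.76), and the interaction was negative for 12 with ISO and for 11 with SR-3420. Cars, Yars and Nars rose by 1.26, 1.07 and 0.93 with ISO.

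The parallel ATF6 and XBP1 arm of the unfolded protein response, given for contrast, was mixed. Of its 20 genes 9 were higher and 5 lower with ISO, 9 higher and 3 lower with SR-3420 (medians 0.23 and -0.04), and 9 higher and 7 lower with ISO under inhibitors. The interaction was negative for 6 and positive for 5 with ISO. For SR-3420 it was negative for 6 and positive for 1 (6 and 0 without the shallow library). Xbp1 itself rose more with ISO under inhibitors (1.54, SE 0.06) than without (0.51, SE 0.06), an interaction of 1.02 opposite in sign to those of Atf4 and Ddit3. These counts are of total Xbp1 mRNA and do not separate its spliced form. The study measured that splicing by RT-qPCR and reports it as raised by ISO and SR-3420 and highly dependent on lipolysis. Hspa5, the chaperone BiP, rose by 0.76 with ISO without and by 0.87 with inhibitors, and the interaction did not pass (0.11, SE 0.10). Derl1, which serves removal of proteins from the endoplasmic reticulum, rose by 0.73 with ISO and read -0.04 (SE 0.07) with ISO under inhibitors. Mean levels of Hspa5, Xbp1 and Derl1 went from 673, 194 and 425 CPM with Vehicle to 1133, 283 and 695 CPM with SR-3420. Under inhibitors they were 794, 190 and 373 CPM with Vehicle and 758, 190 and 426 CPM with SR-3420. Without the shallow library their SR-3420 interactions were -0.77, -0.57 and -0.55, of the same sign as those of Atf4 and Ddit3. These 3 genes were named for their small p in this interaction, so they do not stand for the list. With all libraries 13 of the 20 genes did not pass it (median -0.12).

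**Figure D4:**
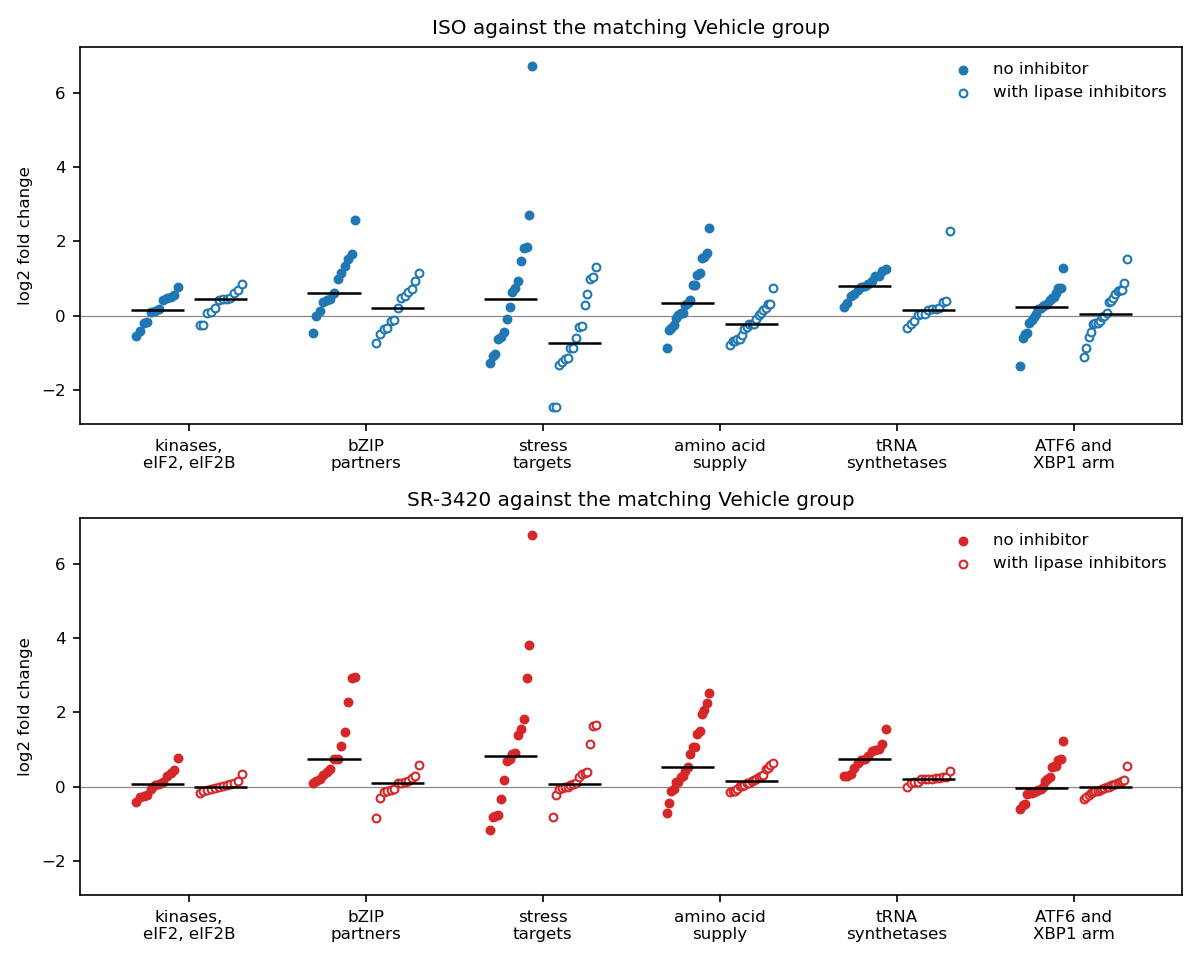
Log2 fold change of every tested gene of the 6 pathway lists (points, sorted within each column; line, median) for ISO (top) and SR-3420 (bottom) against the matching Vehicle group, without (filled) and with (open) lipase inhibitors. The tRNA synthetase genes lie above 0 with both stimuli without inhibitors, and the median of the stress targets is below 0 with ISO under inhibitors.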

How the data were processed

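RNA-seq was performed on 18 samples in 6 groups of 3, grouped by the labels. The deposited values are raw read counts per gene, which the authors made from TruSeq2 libraries by alignment to mm9 with STAR 2.4.2a, HOMER (at most 1 read per position and length) and iRNA-seq. The study's methods speak of independent experiments, while the labels give replicate numbers and no culture, day or batch.

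Genes were filtered with filterByExpr (minimum count 10, minimum total 15), scaled by TMM and tested with the quasi-likelihood test of edgeR 4.0.16 (limma 3.58.1, R 4.3.3) in 1 model over all 18 samples, with Benjamini-Hochberg adjustment over 12156 genes. A gene passed at an adjusted p of at most 0.05. Standard errors, SD and floors of 3 counts are per gene, and floors cover counting error only. Replicates of a group differed by more than sampling noise in every pair, so no library was counted as a duplicate. In simulated counts for ISO against Vehicle, all 200 genes raised 3-fold among 12056 tested were recovered, with 9 other calls. The simulation held no smaller changes and no falls, so it does not bear on those.

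Alternatives were DESeq2 1.42.0, RLE factors, total counts, other low count filters, only the groups compared, a replicate block, thinned libraries, Lars2 left out and each sample left out in turn. Same-numbered samples deviated from their group means with mean correlations of -0.01, 0.15 and 0.19 for numbers 1, 2 and 3. Single pairs ran from -0.11 to 0.17 for number 1, from 0.075 to 0.25 for number 2 and from 0.11 to 0.28 for number 3. The main fit did not use the numbers as pairs, although those of numbers 2 and 3 were alike, and the replicate block is given as an alternative.

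The 10 genes and the lists were chosen with earlier results of these data known. Named beside the 10 genes were, from each list, the 3 genes with the smallest p in the SR-3420 interaction among those that passed, the 3 genes most correlated with Atf4, Ddit3 and Trib3, genes that overlap one of the 10, and Lars2. The genes most correlated were taken by Pearson's r of log2 CPM (prior count 2) over the 18 samples, at a mean log2 CPM of at least 3. Promoters came from RefSeq (GRCm38.p6), in which all 10 genes matched.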

Additional observations from a re-analysis of the deposited data

Results flagged for a closer look

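For 3 genes ISO acted in opposite directions without and with lipase inhibitors, each past the test, and the difference between the effects was itself tested as an interaction. Ddit3 changed by 0.67 with ISO alone and by -1.47 under inhibitors on the log2 scale, a difference of -2.13 (adjusted p = 3.95e-12, edgeR). Chac1 changed by 0.90 and -2.23, a difference of -3.13 (adjusted p = 5.05e-11). Sesn2 changed by 1.19 and -0.38, a difference of -1.56 (adjusted p = 2.1e-09). In Lipase Inh. + ISO all 3 samples of each gene lay below all 3 samples of Lipase Inh. + Vehicle. Those of Ddit3 and Chac1 also lay below the Vehicle samples without inhibitors, while those of Sesn2 overlapped them. The means of Sesn2 were 38.8 CPM in Lipase Inh. + ISO, 40.9 in Vehicle and 50.1 in Lipase Inh. + Vehicle. Groups of 3 samples were too small for a test of single outlying samples.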

How the results depend on the processing

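Of the 90 log2 values (10 genes in 9 comparisons), 90 kept direction and call with RLE factors, with the CPM filter and without Lars2, 89 with DESeq2, 85 with a replicate block and 74 with total counts. Total counts moved the median of all genes by -0.31 (ISO), -0.16 (SR-3420), -0.23 (ISO under inhibitors), -0.15 (ISO against SR-3420) and -0.13 (the same under inhibitors), and the share of calls that were higher from 51.0% to 27.8% for ISO under inhibitors, 68.8% to 33.1% for SR-3420 under inhibitors and 53.1% to 20.3% for ISO against SR-3420. With total counts, Trib3 read -0.30 with ISO, so that 1 gene of the set was lower, and Atf5 read -0.071 with ISO and -0.056 with SR-3420. Ppp1r15a then read -0.0039 with inhibitors alone, Atf4 and Atf5 both -0.20 with ISO under inhibitors, Atf5 -0.078 and Asns -0.0031 with SR-3420 under inhibitors, and Atf5 -0.0154 and Asns -0.0038 for ISO against SR-3420. Ppp1r15a passed as lower with ISO under inhibitors (-0.27, adjusted p = 0.0256). In thinned libraries Chac1 read -0.17 and Ppp1r15a -0.13 with inhibitors alone, and Atf5 -0.0246, Asns 0.040 and Ppp1r15a 0.069 with ISO under inhibitors. Trib3 read -0.0031 with ISO when only the groups compared were fitted, and Atf5 0.0116 for Lipase Inh. + ISO against Lipase Inh. + SR-3420 with no low count filter. Sesn2 made 1 gene higher with inhibitors alone under DESeq2 (adjusted p = 0.049) and the replicate block (adjusted p = 0.0433). For Lipase Inh. + ISO against Lipase Inh. + SR-3420, 2 genes were higher, Atf3 the added one, with no low count filter, with only the groups compared and with the replicate block. With SR-3420 under inhibitors 5 genes were higher with total counts.

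With 1 sample left out, that count ran from 5 (without Lipase Inh. + SR-3420 replicate 1) to 8 (without replicate 3, when Sesn2 passed at adjusted p = 0.0463), and the genes higher in Lipase Inh. + ISO than in Lipase Inh. + SR-3420 from 1 to 2. Values that changed sign then were Trib3 with ISO (-0.033 to 0.077), Chac1 (-0.054 to 0.17) and Ppp1r15a (-0.053 to 0.064) with inhibitors alone, Atf4 (-0.078 to 0.12), Atf5 (-0.078 to 0.12), Asns (-0.11 to 0.072) and Ppp1r15a (-0.10 to 0.028) with ISO under inhibitors, Atf5 with SR-3420 under inhibitors (-0.049 to 0.14), its SR-3420 interaction (-0.15 to 0.032) and its difference between the stimuli under inhibitors (-0.12 to 0.082). The labels give the replicates only a number, and 12 of 18 samples were closest to their own. These were all 6 samples of number 2 and all 6 of number 3, against 0 of 6 for number 1. With the replicate block the genes called among all went from 111 to 269 for inhibitors alone and from 528 to 852 for SR-3420 under inhibitors, and it added calls for Atf5 with ISO (adjusted p = 0.00134) and in the ISO interaction (0.0452), for Sesn2 above, and for Atf3 between the stimuli without (0.00855) and with inhibitors (0.0305). The cause of these changes was not tested. At 4263755 counts, the shallow library limits low genes of Lipase Inh. + SR-3420 most.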

Other observations

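Among 7 paralogues of the 10 genes, 2 were higher and 3 lower with ISO, and 1 was higher and 3 lower with SR-3420 (edgeR, adjusted p of at most 0.05), beside 26.8% and 25.0% of all genes with ISO and 26.0% and 25.4% with SR-3420. Ppp1r15b, which encodes the constitutive partner of the eIF2α phosphatase, moved in the same directions as its stress-induced relative Ppp1r15a. Its mean was 631 CPM with Vehicle, 1180.0 with ISO and 1348 with SR-3420, and 635, 636 and 851 CPM in the matching groups with inhibitors. The log2 fold changes were 0.90 (ISO) and 1.09 (SR-3420), and under inhibitors 0.00 and 0.42. Sesn1, a sestrin known as a p53 target, went the other way to Sesn2, with 50.7 CPM with Vehicle, 17.6 with ISO and 22.1 with SR-3420. Under inhibitors Sesn1 stood at 60.1, 23.6 and 41.6 CPM, so that ISO changed it by -1.54 without and by -1.35 with inhibitors on the log2 scale. The ISO interaction of Sesn1 did not pass (0.18, SE 0.15, adjusted p = 0.374).

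Trib1 and Eprs were chosen after their values were seen. Trib1, a relative of Trib3, rose by 1.98 (SE 0.10) with ISO and by 1.74 (SE 0.10) with ISO under inhibitors on the log2 scale, while with SR-3420 it read -0.02 (SE 0.10). Its ISO interaction did not pass (-0.24, SE 0.14, adjusted p = 0.2), and its difference between ISO and SR-3420 was 2.00 (SE 0.10). Eprs, the glutamyl-prolyl-tRNA synthetase gene, rose by 1.197 (SE 0.06) with ISO and by 2.29 (SE 0.06) with ISO under inhibitors, an interaction of 1.10 (SE 0.09), opposite in sign to that of 12 of the 13 genes in its list.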
